A study of Mus musculus with 30 samples.

Results

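This account covers 9 genes of the complement system among the 43629 genes counted: C1qa, C1qb and C1qc (the chains of C1q), C3, C4b, Cfb (factor B), the receptors C3ar1 and C5ar1, and Serping1 (the C1 inhibitor). They were taken by name, as a list drawn up with earlier results of these data known. The RNA came from hearts of wild type C57BL/6J mice. In the MI groups, under isoflurane, the chest was opened, the pericardium was removed and a coronary artery was tied off. In the sham groups everything but the ligation was done, so that opened chests and a removed pericardium are shared by all groups. Hearts were taken 2, 4 or 7 days later, which gave MI and sham groups of 5 libraries at each of the 3 days, 30 libraries in all. The labels give no age and no part of the heart, and name the replicates only as separate samples of a group, so each p-value speaks of the spread among these libraries, which may be technical.

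Complement is a cascade of plasma and tissue proteins that marks debris and microbes. C1q, which tissue macrophages make, binds antibodies, pentraxins and dying cells and starts the classical pathway. Its proteases cut C4 and C2, the alternative pathway uses factor B, and both routes cut C3. The small fragments C3a and C5a act on myeloid cells through the receptors encoded by C3ar1 and C5ar1. The C1 inhibitor blocks the proteases of C1 and also those of the kallikrein and coagulation systems. The liver makes most circulating complement, while macrophages, fibroblasts and adipocytes make parts of it locally.

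All 9 genes lie on the minus strand (GRCm38). C1qb (136880129 to 136886187), C1qc (136889804 to 136893065) and C1qa (136895917 to 136898803) stand side by side on chromosome 4 within 18.7 kb. C4b (34728380 to 34743882) and Cfb (34856374 to 34862518) lie on chromosome 17 within 134 kb of each other, and C3 (57203970 to 57228136) lies farther along it. C3ar1 is on chromosome 6 (122847138 to 122856161), C5ar1 on chromosome 7 (16246743 to 16259540) and Serping1 on chromosome 2 (84765387 to 84775444). Cfb is overlapped on the same strand by the annotated gene Gm20547, which had 0 counts in every library. How reads that fall in both genes were counted is not given in the sources used here, so the level of Cfb may be understated. C4b has a near-copy, C4a, listed at 0.103 to 1.73 CPM (counts per 1000000 counts of the library). Adding its counts to those of C4b changed no call.

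The bases before the start of C1qb, C1qc and C3 are shown because C1qb and C1qc, neighbours on the chromosome, moved together, while C3 did not move with them. They come from the RefSeq promoter table for GRCm38.p6, which holds 5 of the 9 genes, and run 5′ to 3′ on the gene's strand up to the first base that any annotated transcript of the gene covers. C1qb and C3 are shown over 250 bases and C1qc over 99. Capitals mark matches to the PU box GAGGAA (read as TTCCTC on the other strand) or to the C/EBP motif TTGCNNAA. The positions are chr4:136886201-136886450 for C1qb, chr4:136893066-136893164 for C1qc and chr17:57228137-57228386 for C3.
C1qb: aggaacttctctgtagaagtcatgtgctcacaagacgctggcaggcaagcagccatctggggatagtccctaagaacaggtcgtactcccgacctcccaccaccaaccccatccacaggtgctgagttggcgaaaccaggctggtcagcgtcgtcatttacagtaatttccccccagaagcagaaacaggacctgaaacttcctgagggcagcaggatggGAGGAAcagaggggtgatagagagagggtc
C1qc: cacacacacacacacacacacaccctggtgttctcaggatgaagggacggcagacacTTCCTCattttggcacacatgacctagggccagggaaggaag
C3: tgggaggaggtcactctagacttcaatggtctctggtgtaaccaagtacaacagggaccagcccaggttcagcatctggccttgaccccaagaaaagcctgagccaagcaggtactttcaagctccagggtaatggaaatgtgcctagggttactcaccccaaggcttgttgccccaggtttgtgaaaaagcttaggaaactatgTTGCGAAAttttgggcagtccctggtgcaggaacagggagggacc
Over the 250 bases before each gene's start in that table, on both strands, the PU box matched in C1qb and C1qc, against 23.3% of all 32851 promoters. The C/EBP motif matched in C3, against 9.56% of all. The GAS motif TTCNNNGAA, found in 7.02% of all, matched in none of the 5 genes, and the windows of C3ar1 and C5ar1 held none of these motifs. A match is a description of letters and no evidence of binding.

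Library totals ran from 7841930 to 14070017 counts, with 18668 to 20905 genes detected. The 5 cardiomyocyte markers, among them the myosin Myh6, summed to 16310 to 25168 CPM in MI and 21650 to 40260 CPM in sham hearts. 6 libraries held transcripts of lung (50 CPM or more of Sftpc and Scgb1a1 together), namely sham day 4 replicates 2 and 3, sham day 7 replicates 1 to 3 and MI day 7 replicate 2. Adipoq, the adipocyte gene, reached at least 10 CPM in 15 libraries, which left 1 MI and 3 sham libraries at day 4 and 0 MI and 1 sham at day 7. It ran from 0.530 to 6.80 CPM in MI and 1.24 to 3.46 CPM in sham hearts at day 2, from 0.846 to 22.8 and 1.80 to 68.5 CPM at day 4, and from 12.9 to 57.4 and 7.91 to 49.0 CPM at day 7. MI day 7 replicate 4 also held 288 CPM of the skeletal muscle myosin Myh1, against at most 0.431 CPM in any other library. The library names of day 2 carry another leading number than those of days 4 and 7, so day 2 against a later day cannot be told apart from whatever that number stands for.

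The 3 C1q genes were alike. At day 2 their levels in infarcted hearts overlapped those in sham hearts, and at days 4 and 7 every infarcted heart stood above every sham heart. C1qb read 108, 149, 123, 89.2 and 127 CPM in MI and 93.3, 114, 90.5, 85.7 and 79.9 CPM in sham hearts at day 2. At day 4 it read 343, 297, 309, 326 and 355 CPM in MI and 108, 120, 145, 105 and 87.3 CPM in sham hearts. At day 7 it read 392, 288, 416, 335 and 223 CPM in MI and 80.4, 125, 93.5, 77.5 and 82.4 CPM in sham hearts. The lowest MI value at day 4 thus lay far above the highest sham value of any day, and sham levels stayed in one band throughout.

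In edgeR's fit C1qb was 2.56-fold higher in MI hearts at day 4 (log2 fold change 1.36 ± 0.11 SE, adjusted p = 2.41e-07) and 3.17-fold higher at day 7 (1.66 ± 0.17, adjusted p = 8.18e-06). C1qa averaged 257 ± 21.5 CPM in MI against 106 ± 21.2 CPM in sham hearts at day 4 (SD, n = 5 each), 2.15-fold higher (adjusted p = 2.34e-06). At day 7 it averaged 267 ± 57.0 CPM in MI against 85.2 ± 15.4 CPM in sham hearts, 2.75-fold higher (adjusted p = 8.66e-06). The fold changes come from the fit, which rescales the library totals, while CPM use the totals as they are. Ratios of mean CPM can thus differ from the folds, and for C1qa they are larger at both days. C1qc rose 2.11-fold at day 4 (adjusted p = 2.61e-06) and 2.62-fold at day 7 (adjusted p = 1.26e-05). At day 2 none of the 3 passed: the log2 fold changes were 0.15 ± 0.12 for C1qa (adjusted p = 0.293), 0.27 ± 0.12 for C1qb (0.0717) and 0.18 ± 0.11 for C1qc (0.190). C1qb passed at day 2 without sham replicate 2 (0.34, adjusted p = 0.0277) or without MI replicate 4 (0.35, adjusted p = 0.0147).

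In bulk tissue, fewer cells of a type and less RNA per cell cannot be told apart. The summed level of 8 macrophage markers, all present in each group, ran from 541 to 1154 CPM in MI and 460 to 574 CPM in sham hearts at day 2, from 1547 to 1922 and 437 to 750 CPM at day 4, and from 1145 to 2379 and 378 to 776 CPM at day 7. At day 2 it was higher in MI by its medians (812 and 475 CPM), with 4 of the 8 markers called, where no C1q gene was called. At days 4 and 7 all 8 were called higher along with the C1q genes, and their part in that difference was not tested. Of 6 markers of resident macrophages, 1 was higher and 1 lower at day 4 and 2 were higher at day 7, with median log2 fold changes of 0.10 and 0.22, and their sums ran from 254 to 419 CPM in MI and 171 to 376 CPM in sham hearts at day 4 and from 225 to 461 and 162 to 244 CPM at day 7. Within a library, the ratio of C1qa to Csf1r, the receptor for macrophage colony-stimulating factor, differed between MI and sham hearts by -0.04 on the log2 scale at day 2, 0.25 at day 4 and 0.26 at day 7. None of these passed an exact permutation test (adjusted p = 0.778, 0.122 and 0.122 over 18 ratio tests). The groups overlapped at each day.

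**Figure D1:**
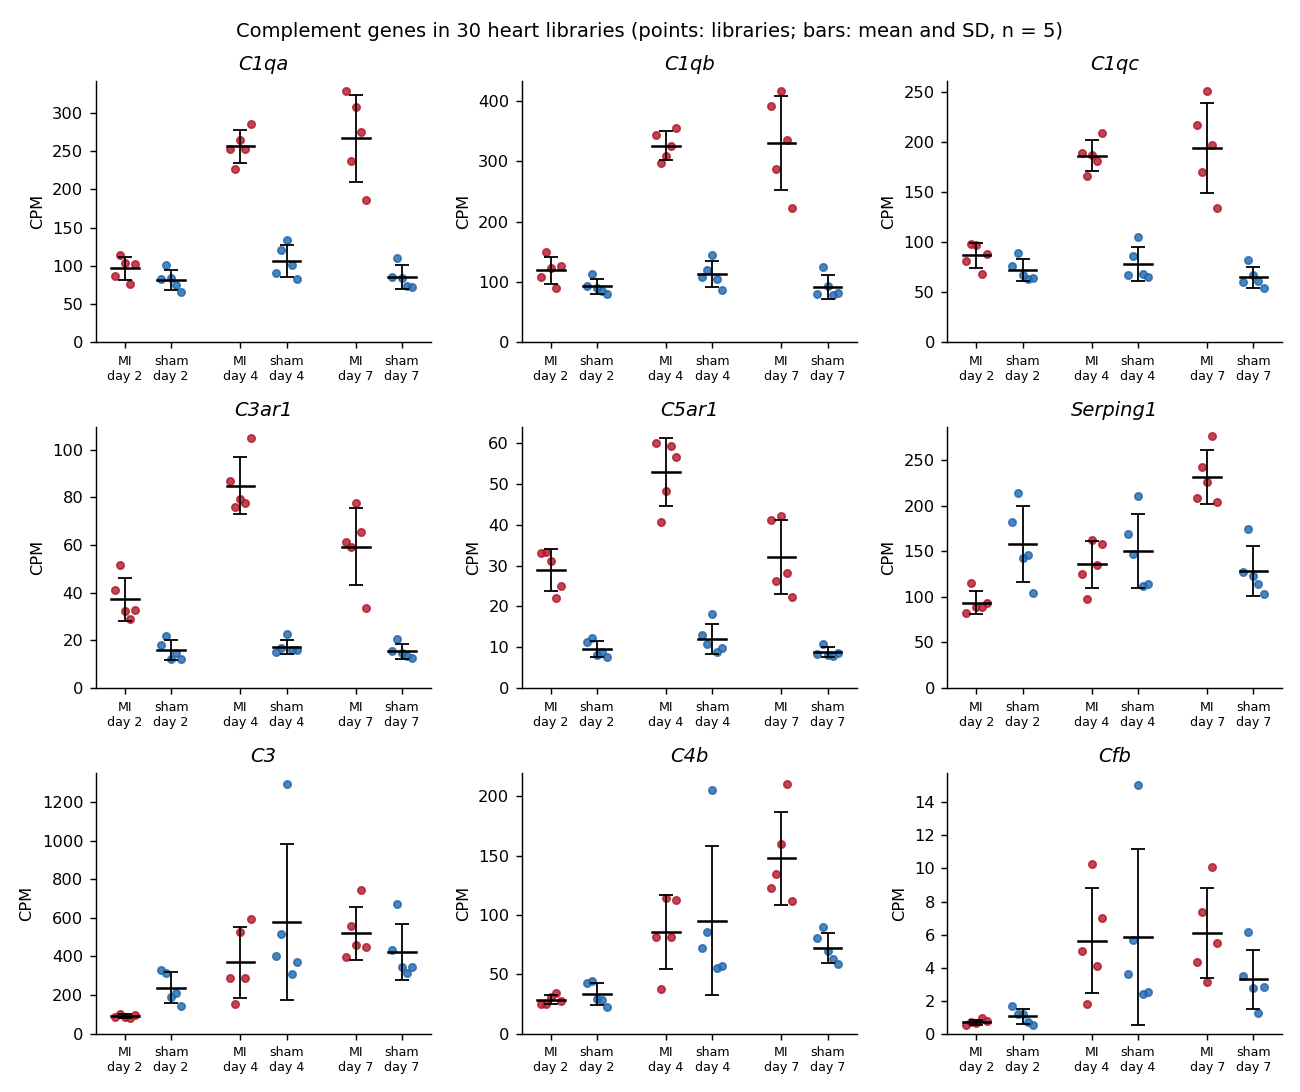
CPM of the 9 complement genes in each library, with a panel per gene and MI (red) left of sham (blue) at each day. Points are libraries and bars the mean and SD of 5. The C1q genes separate at days 4 and 7, the receptors at all 3 days, and C3, C4b and Cfb share 1 high sham library at day 4 (C3 at 1291 CPM).

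The receptors were higher in infarcted hearts at every day, with no overlap. C3ar1, whose product binds the anaphylatoxin C3a, read 40.9, 51.4, 32.2, 28.8 and 32.6 CPM in MI and 18.1, 21.8, 12.3, 14.8 and 11.99 CPM in sham hearts at day 2. At day 4 it read 86.8, 75.9, 79.4, 77.6 and 105 CPM in MI and 15.3, 16.9, 22.5, 16.1 and 15.8 CPM in sham hearts. At day 7 it read 61.2, 59.0, 77.5, 65.4 and 33.6 CPM in MI and 15.4, 20.6, 14.6, 13.6 and 12.6 CPM in sham hearts. At day 4 the lowest infarcted heart stood above 3 times the highest sham heart.

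The fold changes of C3ar1 were 2.2 at day 2 (log2 1.14 ± 0.17, adjusted p = 1.01e-04), 4.35 at day 4 (2.12 ± 0.11, adjusted p = 1.13e-08) and 3.38 at day 7 (1.76 ± 0.19, adjusted p = 1.13e-05). C5ar1, the receptor of C5a, averaged 29.0 ± 5.09 CPM in MI against 9.59 ± 1.99 CPM in sham hearts at day 2, a 2.82-fold difference (adjusted p = 1.31e-06). At day 4 the averages were 53.0 ± 8.32 CPM in MI and 12.1 ± 3.72 CPM in sham hearts, 3.91-fold (adjusted p = 3.71e-07). At day 7 they were 32.0 ± 9.09 CPM in MI and 8.74 ± 1.18 CPM in sham hearts, 3.21-fold (adjusted p = 1.08e-05). The highest sham value of C5ar1 was 18.1 CPM, in day 4 replicate 3, and the lowest MI value was 22.2 CPM, at both day 2 and day 7.

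Hc, the gene of complement C5, from which C5a is cut, was near the counting limit in most libraries: its median was 0 in MI and 0.0854 CPM in sham hearts at day 2, 0.173 and 0.444 CPM at day 4, and 0.431 and 0.128 CPM at day 7. It reached 36.8 CPM in an MI heart at day 7, and that group's lung markers reached 2162 CPM in sum. A count of 0 allows up to 0.213 to 0.383 CPM by library (3 counts, counting error only).

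The ratio of C5ar1 to C3ar1 differed between MI and sham hearts at day 2. The log2 ratio averaged -0.35 ± 0.20 in MI and -0.70 ± 0.09 in sham hearts (SD, n = 5 each), a difference of 0.36 (exact permutation p = 0.0159, adjusted p = 0.0286). With 8 of the 10 libraries left out in turn it missed the threshold (adjusted p = 0.0571 each time), where 4 against 5 libraries limit the test. At days 4 and 7 the differences were -0.13 and -0.08 and did not pass. Against Csf3r, the granulocyte colony-stimulating factor receptor of neutrophils, C5ar1 was lower in MI hearts. Their log2 ratio averaged -1.20 ± 0.56 in MI and 1.26 ± 0.31 in sham hearts at day 2, 0.85 ± 0.47 and 1.66 ± 0.29 at day 4, and 0.74 ± 0.68 and 1.83 ± 0.39 at day 7. These differences of -2.46, -0.81 and -1.09 had adjusted p = 0.0238, 0.0286 and 0.0286 in the exact permutation test. The day 7 difference missed with 5 in place of 0.5 counts added (-0.91, adjusted p = 0.0571), and those of days 4 and 7 missed on leaving out any of 8 and any of 7 of the 10 libraries (adjusted p of 0.0519 to 0.0571), where 4 against 5 libraries limit the test. Neutrophil markers summed to 175 to 644 CPM in MI and 8.62 to 16.5 CPM in sham hearts at day 2, 31.9 to 217 and 4.66 to 10.96 CPM at day 4, and 16.6 to 256 and 1.91 to 8.63 CPM at day 7, with Ly6g at 0 in the sham hearts of days 4 and 7. Csf3r itself ran from 43.3 to 126 CPM in MI and 2.65 to 5.33 CPM in sham hearts at day 2. The part of these cells in the ratio was not tested.

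C3, the component on which all pathways meet, went the other way at day 2. It read 87.3, 104, 86.0, 80.8 and 96.6 CPM in MI and 329, 317, 190, 211 and 146 CPM in sham hearts. Every infarcted heart lay below every sham heart, and the infarcted hearts were the more uniform. In the fit it was 2.79-fold lower in MI (log2 fold change -1.48 ± 0.19, adjusted p = 3.89e-05). Adipocyte markers were low at day 2, from 2.86 to 18.9 CPM in MI and 4.17 to 10.48 CPM in sham hearts in sum, and liver markers summed to at most 1.14 CPM. Markers of several cell types were lower. Of 6 for mesothelium, the layer on the heart's surface, 3 were lower (median log2 fold change -0.79). Their sums were 21.7 to 57.1 CPM in MI and 39.4 to 70.4 CPM in sham hearts. Of the 6 fibroblast markers 3 were lower and none higher (median -0.29). So were 3 of 5 cardiomyocyte markers (median -0.53) and 2 of 4 endothelial markers (median -0.31), again with none higher. The part of these cells in the C3 difference was not tested. With log2 Adipoq as a covariate, and without the 2 MI libraries over 5 CPM of Adipoq, the call remained.

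At day 4 C3 read 286, 154, 526.1, 289 and 595 CPM in MI and 402, 517, 1291, 310 and 372 CPM in sham hearts. The groups overlapped, the sham value of 1291 CPM came from replicate 3 with the most Adipoq of all libraries (68.5 CPM), and the MI value of 154 CPM came from replicate 2 with the least of its group (0.846 CPM). MI replicate 4, with the most Adipoq of its group (22.8 CPM), read only 289 CPM of C3. The log2 fold change was -0.80 ± 0.48 (adjusted p = 0.190). The fit of all 30 libraries called it lower (-0.81, adjusted p = 0.0428). The value also differed with the libraries kept. Without the 2 sham hearts holding lung transcripts it was -0.17 (adjusted p = 0.760), with log2 Adipoq as a covariate -0.70 (adjusted p = 0.0337), and without all libraries over 10 CPM of Adipoq, 1 MI heart against 3 sham hearts, -1.39 (adjusted p = 1.98e-04, with the lone heart assumed to vary like the others). At day 7 C3 averaged 521 ± 138 CPM in MI against 422 ± 145 CPM in sham hearts, a log2 fold change of 0.12 ± 0.20 (adjusted p = 0.652) that was -0.04 without MI replicate 4.

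C4b, whose product is cut in the classical and lectin pathways, passed the test as higher in infarcted hearts at day 7. It then read 123, 135, 159, 210.4 and 111 CPM in MI and 80.8, 89.5, 69.9, 62.8 and 58.8 CPM in sham hearts, with no overlap. This was 1.79-fold higher (log2 fold change 0.84 ± 0.16, adjusted p = 6.20e-04). The highest value, in MI replicate 4, came with 57.4 CPM of Adipoq and 288 CPM of Myh1, and their part was not tested. Without MI replicate 4 and the 4 libraries of day 7 holding lung transcripts the log2 fold change was 0.87 (adjusted p = 0.0105, 3 MI against 2 sham hearts). At day 2 C4b averaged 28.7 ± 3.86 CPM in MI against 33.5 ± 9.59 CPM in sham hearts (log2 -0.31 ± 0.17, adjusted p = 0.151), and without sham replicate 5 it passed as lower (-0.42, adjusted p = 0.0313). At day 4 it averaged 85.7 ± 31.3 CPM in MI against 95.2 ± 62.8 CPM in sham hearts (log2 -0.31 ± 0.42, adjusted p = 0.560). The sign of that value turned without sham replicate 3 (0.14), and without the fat-rich libraries, which left MI replicate 2 alone, the lowest of its group in C4b at 37.6 CPM, against 3 sham hearts, C4b was called lower (-0.87, adjusted p = 0.00460, with the lone heart assumed to vary like the others).

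Cfb, the protease precursor of the alternative pathway, was scarce. At day 2 it had 5 to 13 counts in MI and 6 to 19 counts in sham libraries, 0.704 ± 0.150 CPM and 1.06 ± 0.462 CPM, and did not pass the filter on low counts. Without that filter the log2 fold change was -0.64 ± 0.35 (adjusted p = 0.193). At day 4 it read 4.999, 1.79, 10.3, 4.12 and 7.02 CPM in MI and 3.60, 5.70, 15.1, 2.41 and 2.55 CPM in sham hearts (log2 -0.20 ± 0.57, adjusted p = 0.789). At day 7 it averaged 6.08 ± 2.73 CPM in MI against 3.29 ± 1.80 CPM in sham hearts (log2 0.69 ± 0.37, adjusted p = 0.127), and it passed as higher without sham replicate 2, which held lung transcripts (1.02, adjusted p = 0.0282). It passed in none of the 8 alternatives other than leaving out single libraries (0.67 to 1.25, adjusted p of 0.0769 to 0.208). These included leaving out all libraries with lung transcripts.

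**Figure D2:**
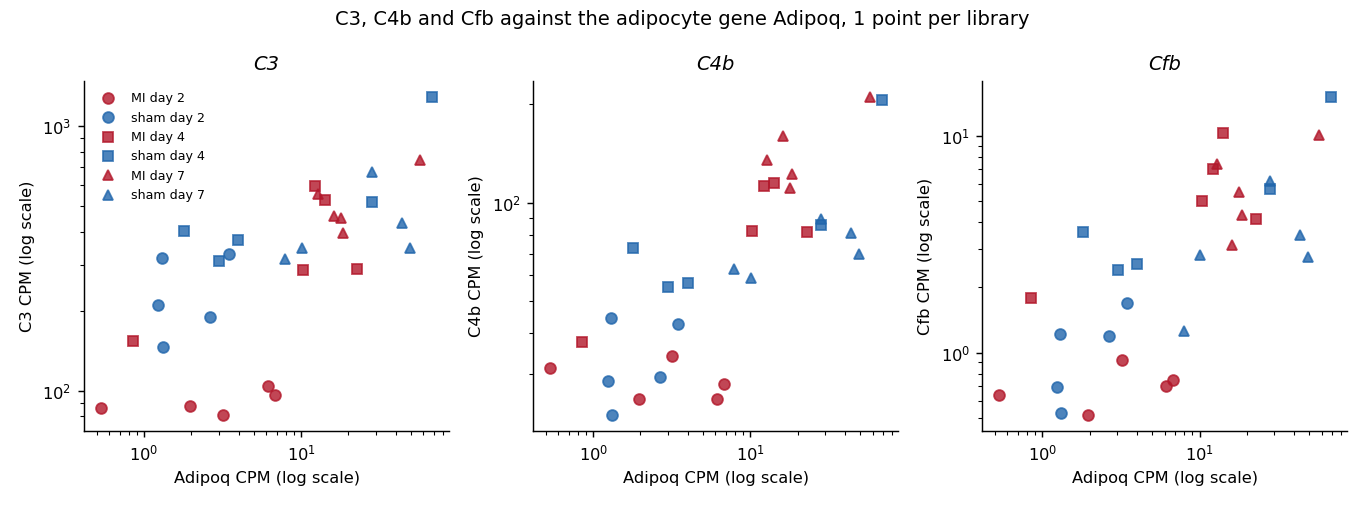
C3, C4b and Cfb CPM against Adipoq CPM in each of the 30 libraries, both on log axes, with MI in red and sham in blue and a marker shape per day. The libraries with most Adipoq, sham day 4 replicate 3 (68.5 CPM) and MI day 7 replicate 4 (57.4 CPM), hold the highest C3 and Cfb among sham and MI hearts except for 1 MI day 4 heart in Cfb, and the MI day 2 hearts lie lowest in C3 at like Adipoq. Other libraries do not keep this order. Sham day 7 replicate 3 (49.0 CPM of Adipoq) holds 347 CPM of C3, and replicate 2 (28.3 CPM of Adipoq) holds 669 CPM. MI day 7 replicate 4 also holds 288 CPM of the skeletal muscle gene Myh1.

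Within a library, C4b stood higher relative to C3 in infarcted hearts at all 3 days, and this did not depend on the library total. The log2 ratio of C4b to C3 read -1.79, -2.04, -1.46, -1.25 and -1.79 in MI and -2.95, -2.83, -2.69, -2.88 and -2.69 in sham hearts at day 2. It averaged -2.05 ± 0.25 in MI and -2.58 ± 0.11 in sham hearts at day 4, and -1.82 ± 0.22 in MI and -2.50 ± 0.24 in sham hearts at day 7. The differences of 1.14, 0.53 and 0.68 all reached the lowest p-value possible with 5 against 5 libraries in the exact permutation test, 0.00794 (adjusted p = 0.0238), and the groups overlapped at no day. Sham day 4 replicate 3, the highest library in both genes, had a ratio of -2.65 that lay among the other sham hearts.

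Cfb also stood higher relative to C3 in infarcted hearts. The log2 ratio differed by 0.85 at day 2 (exact permutation test, adjusted p = 0.0286), 0.68 at day 4 (0.0238) and 0.60 at day 7 (0.0714, not past the threshold). The day 2 values rest on at most 19 counts of Cfb per library, and the day 2 call was lost on leaving out any of 8 of the 10 libraries (0.72 to 0.91, adjusted p = 0.0571). 10 of the 18 ratio tests passed in all. Without the libraries rich in fat or lung transcripts the day 4 differences were 0.50 for C4b to C3 and 0.89 for Cfb to C3 (adjusted p = 0.0918 each, 5 against 3 libraries).

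**Figure D3:**
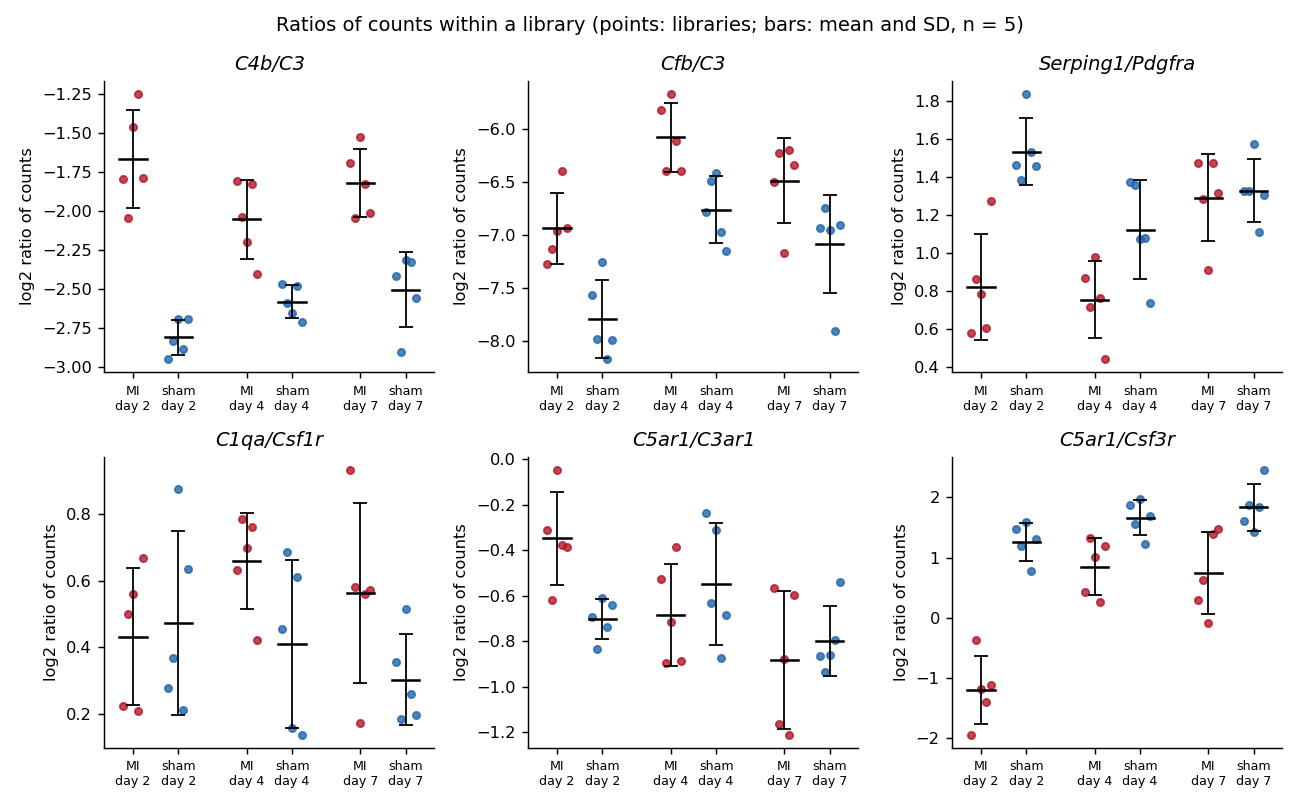
Log2 ratios of counts within each library for 6 gene pairs, with MI (red) left of sham (blue) at each day; points are libraries, bars the mean and SD of 5. C4b to C3 separates the groups at all 3 days (differences of 1.14, 0.53 and 0.68), and C5ar1 to Csf3r lies lowest in MI day 2 hearts (mean -1.20).

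Serping1 was lower in infarcted hearts at day 2 and higher at day 7. At day 2 it read 81.9, 115, 88.9, 88.7 and 93.7 CPM in MI and 182, 213, 143, 146 and 104 CPM in sham hearts, so that 1 sham heart reached into the MI range. It was 1.79-fold lower in MI (log2 fold change -0.84 ± 0.15, adjusted p = 4.55e-04). At day 4 it averaged 136 ± 26.1 CPM in MI against 150 ± 41.0 CPM in sham hearts (-0.32 ± 0.17, adjusted p = 0.123), and with Adipoq as a covariate it passed as lower (-0.31, adjusted p = 0.0455). At day 7 it read 208, 242, 226, 277 and 204 CPM in MI and 127, 174, 123, 114 and 103 CPM in sham hearts, without overlap and 1.58-fold higher in MI (0.66 ± 0.12, adjusted p = 5.60e-04).

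Of 6 fibroblast markers, 3 were lower at day 2, 2 higher and 2 lower at day 4, and 5 higher and 1 lower at day 7. Their median log2 fold changes were -0.29, 0.17 and 0.96. The 6 of them summed to 1424 to 1881 CPM in MI and 1564 to 3262 CPM in sham hearts at day 2, to 2987 to 5240 and 2487 to 3865 CPM at day 4, and to 4099 to 7858 and 2034 to 2960 CPM at day 7. None was at 0 in a whole group, and their part in the Serping1 difference was not tested. Against Pdgfra, the platelet-derived growth factor receptor that marks fibroblasts, Serping1 was lower in MI hearts at day 2: the log2 ratio averaged 0.82 ± 0.28 in MI and 1.53 ± 0.18 in sham hearts, a difference of -0.71 (exact permutation test, adjusted p = 0.0238). The difference was -0.37 at day 4 (adjusted p = 0.0714) and -0.04 at day 7 (adjusted p = 0.778).

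Over the 9 genes, 2 of the 8 tested were higher and 2 lower in MI at day 2, where 46.3% of all 14524 genes tested were called (24.1% higher, 22.2% lower). At day 4, 5 of 9 were higher, against 52.7% called (27.5% higher). At day 7, 7 of 9 were higher, against 55.0% called (28.4% higher). The median log2 fold change of the members tested was 0.16, 1.08 and 1.39 at days 2, 4 and 7, and that of all genes tested -0.01, 0.01 and 0.01. The CPM of the groups did not overlap for C3, C3ar1 and C5ar1 at day 2, for 5 members at day 4 and 7 at day 7, against 30.6, 39.3 and 41.5% of all genes tested. Without the libraries holding lung transcripts, 50.4% of all genes tested were called at day 4 and 38.3% at day 7. The counts of members called were then 5 at day 4 and 7 at day 7, all higher, as with all libraries. Without those over 10 CPM of Adipoq, 1 MI against 3 sham hearts, they were 7 at day 4, with C3 and C4b lower, where 22.8% of all genes were called (3373 of 14808).

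**Figure D4:**
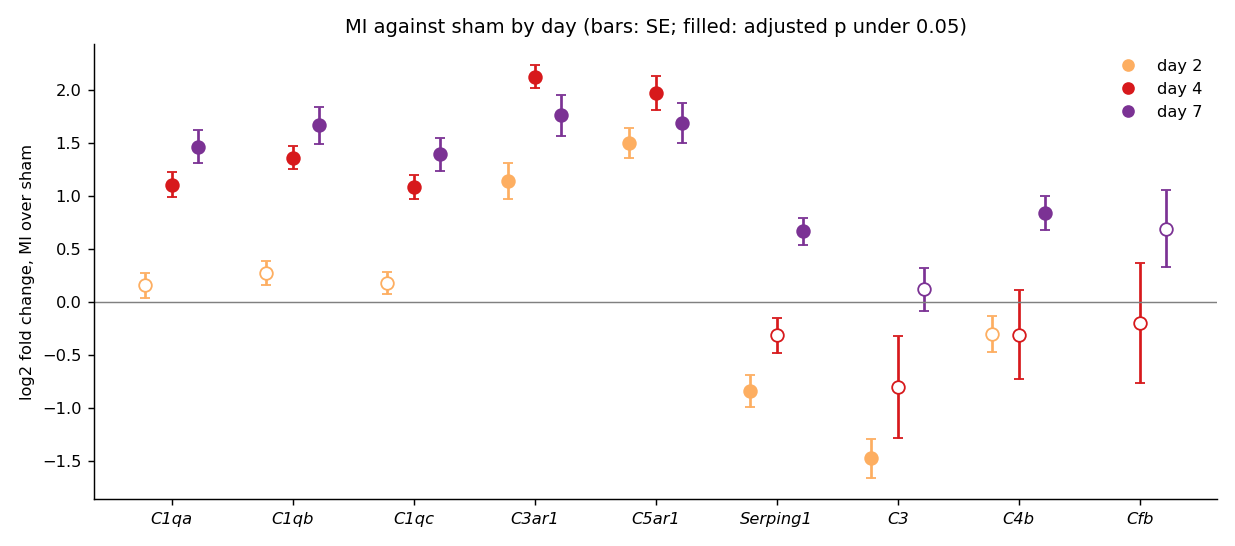
Log2 fold change of MI over sham for the 9 genes at days 2, 4 and 7, with SE; filled points have an adjusted p under 0.05 over all genes tested, and Cfb has no point at day 2. C3 (-1.48) and Serping1 (-0.84) lie below 0 at day 2, while the C1q genes climb between day 2 and day 4 and the receptors lie above 1 throughout.

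The differences between days were tested directly in a fit of all 30 libraries. Those from day 2 cancel whatever the other leading number of its library names stands for only where it acted alike on MI and sham. From day 2 to day 4 the MI effect rose by 0.96 ± 0.20 on the log2 scale for C1qa (adjusted p = 0.00427), 1.10 ± 0.20 for C1qb (0.00237), 0.91 ± 0.19 for C1qc (0.00561) and 0.99 ± 0.25 for C3ar1 (0.0181), 4 of 9 members against 4.80% of all genes in either direction and 2.51% upward. The C3ar1 difference missed the threshold without sham day 2 replicate 2 (0.84, adjusted p = 0.0545). None of the 4 was called without the libraries over 10 CPM of Adipoq, which leaves 1 MI heart at day 4, though the values were 0.97 to 1.14. From day 4 to day 7, 1 member was called, against 1.02% of all genes in either direction and 0.702% upward: the effect on Serping1 rose by 1.0 ± 0.23 (adjusted p = 0.0235). That call was lost without the libraries holding lung transcripts (1.02, adjusted p = 0.155). It was also lost, with values of 0.89 to 0.97, on leaving out any of 7 libraries, which were MI replicates 1 and 2 and sham replicates 1 and 3 of day 4, and MI replicate 4 and sham replicates 4 and 5 of day 7.

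From day 2 to day 7 the effect rose for 6 of 9 members, against 19.2% of all genes in either direction and 10.1% upward: C1qa by 1.33, C1qb by 1.42, C1qc by 1.24, C3 by 1.62, C4b by 1.17 and Serping1 by 1.53. Their adjusted p were 2.61e-05, 2.05e-05, 4.76e-05, 0.0163, 0.0450 and 3.03e-05. The C4b call was lost on leaving out 17 of the 30 libraries in turn (values 0.99 to 1.22), and with median-ratio factors (1.13, adjusted p = 0.0503). For C5ar1 the difference was 0.22 ± 0.25 (adjusted p = 0.582), for C3ar1 0.65 ± 0.25 (adjusted p = 0.0669) and for Cfb 1.36 ± 0.74 (adjusted p = 0.203). C3ar1 was called with Adipoq as a covariate (0.69, adjusted p = 0.0420) and on leaving out any of 5 libraries, sham replicates 3 and 5 and MI replicate 2 of day 2, and sham replicate 2 and MI replicate 5 of day 7 (0.72 to 0.78). Cfb was called with the covariate (1.67, adjusted p = 0.0201), which made 8 members in all, where 22.3% of all genes were called.

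Within the infarcted arm all 9 members were higher at day 4 than at day 2 (46.0% of all genes called, 24.0% higher), from 0.44 ± 0.16 on the log2 scale for Serping1 (adjusted p = 0.0266) to 2.85 ± 0.52 for Cfb (adjusted p = 5.84e-05). Within the sham arm C3 (1.23 ± 0.33, adjusted p = 0.00801), C4b (1.46 ± 0.29, adjusted p = 5.52e-04) and Cfb (2.39 ± 0.49, adjusted p = 5.65e-04) were higher at day 4 than at day 2 (24.4% of all genes called, 11.7% higher). The C3 value was 0.76 without sham day 4 replicate 3 (adjusted p = 0.0650) and 0.53 with Adipoq as a covariate (adjusted p = 0.170). In MI hearts without those over 10 CPM of Adipoq, which leaves replicate 2 alone at day 4, C3, C4b, Cfb, C5ar1 and Serping1 were no longer called, with values of 0.72, 0.34, 1.26, 0.45 and 0.02. The MI value of Serping1 was also lost on leaving out any of MI day 2 replicates 1, 3 and 4 or MI day 4 replicates 3 and 5 (0.35 to 0.42).

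From day 4 to day 7 in infarcted hearts C3ar1 fell by 0.52 ± 0.17 on the log2 scale (adjusted p = 0.0373) and C5ar1 by 0.73 ± 0.16 (adjusted p = 0.00395), while Serping1 rose by 0.77 ± 0.16 (adjusted p = 0.00247), with 12.6% of all genes called, 6.26% higher and 6.29% lower. The C3ar1 call was lost without any of MI day 4 replicates 1, 2 and 5 or MI day 7 replicates 1, 2 and 5 (-0.55 to -0.38). The C1q genes differed by 0.02 to 0.05 there and were not called. In sham hearts 0 of 9 members were called between days 4 and 7 by edgeR (0.122% of all genes) and 0 of 8 by DESeq2 (1.21%). In edgeR 3 members had an unadjusted p under 0.05, as did 1692 of all 15537 genes.

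Levels of different genes can be compared per kilobase of exon, here the union of all annotated exons of a gene. Such a length can understate the level of a gene whose main transcript is shorter. In infarcted hearts C1qb led at each day, with 109.5 ± 20.6 CPM per kb at day 2, 299.8 ± 21.9 at day 4 and 304 ± 72.0 at day 7. C1qa followed within the spread of C1qb at days 2 and 7 (92.9 ± 14.6 and 257 ± 54.8), and C1qc lay well under both (45.0 ± 6.40 and 100.4 ± 23.2). The length used for C1qc was 1931 bases, against 1040 for C1qa and 1088 for C1qb. In CPM C1qc averaged 86.8 and 194 at days 2 and 7, against 96.6 and 267 for C1qa. C3 stood below the 3 C1q genes and Serping1 at day 2 (17.7 ± 1.80 CPM per kb) and next after C1qa at day 7 (101 ± 26.8), where it, C1qc and Serping1 (99.6 ± 12.7) lay within their spreads. C4b ranked below C3ar1 and C5ar1 at day 2 (5.04 ± 0.678 CPM per kb, against 8.64 ± 2.12 and 11.3 ± 1.98) and above them at day 7 (25.9 ± 6.90, against 13.8 ± 3.73 and 12.5 ± 3.54). Cfb was lowest at each day (0.249 ± 0.0533, 2.0 ± 1.13 and 2.15 ± 0.967 CPM per kb). In sham hearts C1qb, C1qa and C3 led with overlapping spreads at days 4 and 7.

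The genes whose course over the 30 libraries lay nearest to each member were found by the root mean square difference of centred log2(CPM + 1) values, among 14547 other genes. C1qa and C1qb differed from each other by 0.12, less than from any gene outside the list. Nearest to C1qa were Renbp (0.17), Pld4 (0.18) and Unc93b1 (0.18), to C1qb Rcn3, Adgre1 and Ctsz (0.18, 0.18 and 0.19), and to C1qc Unc93b1, Dse and Il3ra (0.17, 0.18 and 0.18). Nearest to C3ar1 were Soat1, Nckap1l and Vav1 (0.18 to 0.20), and to C5ar1 Cotl1, Litaf and Il4ra (0.16 to 0.18). Dcn (0.18) and Scn7a (0.22) were among the 3 nearest to Serping1. Dcn encodes the fibroblast proteoglycan decorin. C1s1, a protease of C1, was nearest to C3 (0.28) and among the first 3 for C4b (0.36) and Cfb (0.43). The first places for C4b and Cfb were Pltp (0.36) and H2-K1 (0.41). By this measure C3, C4b and Cfb had no gene as close as the other members did. The distance is not scaled by a gene's own spread, the root mean square of its centred values. That spread was 0.99, 0.91 and 0.95 for C3, C4b and Cfb, 0.99 and 0.97 for C3ar1 and C5ar1, and 0.67 to 0.83 for the C1q genes. For Serping1 it was only 0.47. The libraries share their groups and depth, so these distances describe the course only.

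The rest of the complement system was read from a list of 49 other genes. Of 28 tested at day 2, 8 were higher and 11 lower in MI, where 24.1% of all genes were higher and 22.2% lower. Of 29 at day 4, 10 were higher and 8 lower, against 27.5 and 25.2% of all genes. Of 30 at day 7, 19 were higher and 5 lower, against 28.4 and 26.6%. The medians were -0.10, -0.05 and 0.63 on the log2 scale. By role, receptors were higher in 6 of 9 tested at day 2, 6 of 9 at day 4 and 9 of 10 at day 7. The chains of complement receptors 3 and 4 had the largest fold changes among these receptors at days 2 and 4. Itgax was 3.93-fold higher at day 2, 4.64-fold at day 4 and 4.42-fold at day 7 (adjusted p = 3.60e-04, 4.20e-05 and 0.00266). It was scarce in sham hearts, with 4 to 36 counts per library at day 7. Itgam, with 65.4 ± 10.3 CPM in MI and 18.3 ± 4.80 CPM in sham hearts at day 2, was 3.34-fold higher there and 2.93-fold at day 4, and their shared partner Itgb2 was 2.98-fold and 3.20-fold higher. At day 7 Itgam and Itgb2 were 2.46-fold and 2.65-fold higher (adjusted p = 3.66e-04 and 3.16e-04), below Lrp1. Lrp1, a large endocytic receptor, was 3.44-fold higher at day 7 (462 ± 169 CPM in MI and 118 ± 22.5 CPM in sham hearts, adjusted p = 2.41e-05). C5ar2, the other receptor of C5a, was 1.78-fold, 2.64-fold and 2.08-fold higher over the 3 days, chosen for mention after its values were seen.

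All 3 classical genes of the wider list that were tested, the proteases of C1 and C2, were lower at day 2: C1s1 (14.0 ± 2.84 CPM in MI and 29.4 ± 7.86 CPM in sham hearts, 2.24-fold, adjusted p = 5.37e-05), C2 (0.732 ± 0.200 and 1.52 ± 0.421 CPM, 2.22-fold, adjusted p = 0.00317) and C1ra (8.22 ± 1.56 and 16.9 ± 4.52 CPM, 2.18-fold, adjusted p = 1.08e-04). C2 was not called in the fit of all 30 libraries (adjusted p = 0.117). At day 7 C1s1 and C1ra were 1.48-fold and 1.39-fold higher in MI (adjusted p = 0.0316 and 0.0260), and these calls were lost on leaving out any of 6 libraries for C1s1 and any of 5 for C1ra, MI replicate 4 and sham replicates 1, 3, 4 and 5 for both and MI replicate 2 for C1s1, while that of C1s1 was also lost without the filter (adjusted p = 0.102). At day 4 none of these 3 passed in edgeR, with log2 fold changes of -0.61 for C1s1, -0.44 for C2 and -0.53 for C1ra (adjusted p = 0.128, 0.587 and 0.0620). C8g, a subunit of the C8 of the lytic complex, was lower at each day: 1.47 ± 0.557 CPM in MI and 3.60 ± 0.224 CPM in sham hearts at day 2 (2.63-fold), then 2.45-fold and 1.93-fold. Its call was lost without the fat-rich libraries at day 4 (adjusted p = 0.0961) and without the fat- or lung-rich ones at day 7 (adjusted p = 0.0817).

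Among the lectin pathway genes Masp1, the first protease, was 2.49-fold, 1.74-fold and 2.84-fold higher in MI at days 2, 4 and 7 (adjusted p = 1.93e-05, 5.25e-05 and 1.92e-05), while the collectin Colec11 was 1.99-fold lower at day 4 (11.3 ± 0.789 CPM in MI and 19.8 ± 5.40 CPM in sham hearts, adjusted p = 8.47e-05). Cfp, properdin of the alternative pathway, was 2.88-fold higher at day 4 (64.1 ± 12.6 CPM in MI and 19.8 ± 8.68 CPM in sham hearts, adjusted p = 1.77e-04). Cfd, the adipocyte product adipsin, ran from 3.93 to 335 CPM in MI and 5.18 to 382 CPM in sham hearts over the 3 days, and its highest library was again sham day 4 replicate 3.

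Regulators split. Cfi, the protease that destroys C3b and C4b, was 4.54-fold higher at day 7 (4.57 ± 2.19 CPM in MI and 0.888 ± 0.645 CPM in sham hearts, adjusted p = 9.44e-04). Its lowest sham value there, 0.377 CPM, was 3 counts. With single libraries left out the log2 fold change of Cfi ran from 1.89 to 2.66. Clu, clusterin, was 1.22-fold lower at day 2 (1280 ± 176 CPM in MI and 1469 ± 212 CPM in sham hearts, adjusted p = 0.0375), a call lost on leaving out any of 7 libraries, MI replicates 1, 3, 4 and 5 and sham replicates 1, 2 and 4 (-0.29 to -0.23). It averaged 2105 ± 311 CPM in MI against 1015 ± 181 CPM in sham hearts at day 4 (1.84-fold higher) and was 2.33-fold higher at day 7 (adjusted p = 3.85e-06). Vtn, vitronectin, was lower at all 3 days, 2.40-fold at day 4 and 1.73-fold at day 7. Of the membrane regulators, which protect host cells, Cd59b was 1.82-fold lower at day 7 (2.29 ± 0.718 CPM in MI and 3.62 ± 0.426 CPM in sham hearts, adjusted p = 0.00836), a call lost without the libraries of day 7 that held lung transcripts (adjusted p = 0.0919). Clu, Cfp, Masp1 and C1ra, and the levels of Cfd, were picked after their values were seen.

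**Figure D5:**
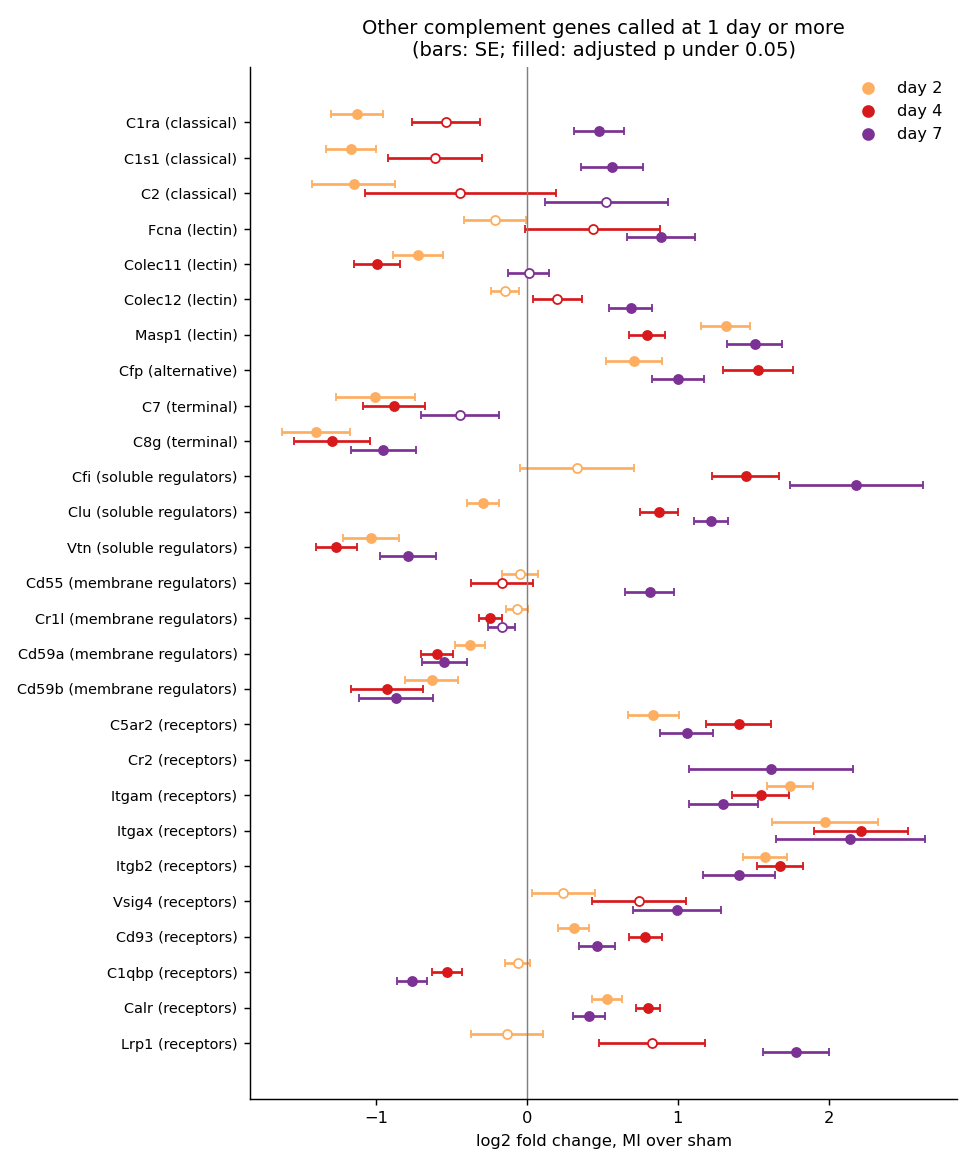
Log2 fold change of MI over sham at days 2, 4 and 7, with SE, for 27 of the other complement genes called at 1 day or more, by role from classical components at the top to receptors at the bottom. Filled points have an adjusted p under 0.05. The receptor chains Itgam, Itgax and Itgb2 lie right of 1 at all 3 days, and C8g and Vtn left of 0 at all 3.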

How the data were processed

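For each library the authors deposited 1 table of raw counts by Ensembl gene. The submitters' processing notes name bcl2fastq 2.20.0, featureCounts and GRCm38. Libraries were directional and read as pairs of 150 bases, per the labels' protocols. Which aligner and strand setting were used, and how reads in 2 genes were handled, is not given in the sources used here. CPM are counts over the library total, and ± in CPM is the SD of 5 libraries. Fold changes rest on library totals rescaled in the fit, so they can differ from ratios of mean CPM. Overlap of groups was read from the CPM without that rescaling. Symbols, positions and exon lengths came from GENCODE for GRCm38, which named 97.5% of identifiers with 99.9% of counts.

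MI and sham were compared per day in edgeR 4.0.16 (R 4.3.3; filterByExpr with minimum count 10 and minimum total 15, TMM, robust quasi-likelihood F test, 2-sided), and days in 1 fit of all 30 libraries. Benjamini-Hochberg adjusted p run over all genes tested and were called under 0.05; the 9 members were fitted with the whole table. Ratios took log2 of counts with 0.5 added and an exact 2-sided permutation test over libraries (scipy 1.17.1, Python 3.11.15), adjusted over 18 tests. The fits were tested on simulated data. The members, lists, tests and most alternatives were chosen with earlier results of these data known. From the wider list the rule names, per day, the 3 highest and 3 lowest fold changes among called genes with at least 1 CPM, and for each member the 3 nearest genes with at least 1 CPM; 1 gene is not reported here. Alternatives were median-ratio factors, DESeq2 1.42.0, no filter, the fit of all libraries, the replicate number as a block, leaving out each library, and leaving out libraries by lung or fat transcripts. Leaving out those with at least 25 CPM of Adipoq or with lung transcripts, and log2(Adipoq CPM + 1) as a covariate, were added after the data were seen. Figures were drawn with matplotlib 3.10.9.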

Additional observations from a re-analysis of the deposited data

Results flagged for a closer look

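Of 54 groups of 5 libraries (9 genes in 6 groups), 4 held a value set far apart from the rest, and all 4 were highs of sham day 4 replicate 3: C3 at 1291 CPM with the next at 517 CPM, C4b at 205 against 85.8 CPM, Cfb at 15.1 against 5.70 CPM, and C3ar1 at 22.5 against 16.9 CPM. Chance flags about 1 in 20 such groups. That library held 68.5 CPM of Adipoq, 44.0 CPM of Sftpc and 366 CPM of Scgb1a1, and their part was not tested.

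The MI effect differed between days in the fit of all 30 libraries. From day 2 to day 4 the difference was 0.96 for C1qa, 1.10 for C1qb, 0.91 for C1qc and 0.99 for C3ar1 on the log2 scale. From day 4 to day 7 it was 1.0 for Serping1. From day 2 to day 7 it was 1.33 for C1qa, 1.42 for C1qb, 1.24 for C1qc, 1.62 for C3, 1.17 for C4b and 1.53 for Serping1.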

How the results depend on the processing

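At days 2, 4 and 7, every member called in MI against sham kept its call and direction under every alternative that was run, leaving out each library included. Members that were not called moved more. At day 4 C4b (-0.31) was 0.27 without libraries holding lung transcripts or richer in fat, and -0.45 to 0.14 with single libraries left out; Cfb (-0.20) was 0.78, 0.017 with Adipoq as a covariate, and -0.53 to 0.46. At day 7 C3 was -0.042 to 0.33 with single libraries left out. The ratio of Serping1 to Pdgfra at day 7 was 0.024 without the libraries richer in fat or lung transcripts and -0.091 to 0.058 with single libraries left out, and C1qa to Csf1r at day 2 was -0.11 to 0.058. Ratios called numbered 3 of 18 without the richer libraries, and all 3 were ratios of day 2, where no library was left out. This left 5 MI against 3 sham libraries at day 4, which limit the test. At day 7 it left 3 against 2, with which no ratio could pass. The smaller count thus says nothing about these transcripts. Without all libraries holding lung or fat transcripts only the 6 ratios of day 2 could be tested, and since no day 2 library was left out, the 5 called there say nothing about these transcripts.

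Counts of genes called depended on the libraries. Without those over 10 CPM of Adipoq (1 MI against 3 sham hearts) 3373 were called at day 4, against 7597; without the richer ones 4967 at day 7, against 7976, and 2265 for sham day 4 against day 2, against 3795. For the difference from day 2 to day 4 (746 genes, 4 members) the counts were 1204 by DESeq2, 475 without the filter, 12 genes and 0 members without the libraries over 10 CPM of Adipoq, and 416 to 1236 genes with single libraries left out. For that from day 4 to day 7 (158 genes, 1 member) they were 421 by DESeq2, and 84 genes and 0 members without the filter. They were 18 and 0 without the libraries holding lung transcripts, 9 and 0 without the richer libraries, and 227 and 2 with the covariate. With single libraries left out they were 70 to 294 genes and 0 to 1 members. For sham day 7 against day 4 (19 genes) they were 110 by DESeq2, 12 without the filter, 53 with the covariate, 1 and 0 without fat-holding and richer libraries, and 0 to 31. For MI day 4 against day 2 (7141 genes, 9 members) 2364 genes and 4 members remained past the threshold without fat-holding libraries. For MI day 7 against day 4 (1951 genes) single libraries gave 1145 to 2184. Leaving out libraries also made the groups smaller, and no cause of these differences in counts was tested.

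The replicate numbers did not pair the libraries: deviations of same-numbered MI and sham libraries correlated at -0.22 to 0.23. With the number as a block, C1qb was called at day 2 (0.26, adjusted p = 0.0302). In sham hearts 4 in place of 3 members then rose from day 2 to day 4, where 23.6% of all genes were called. Leaving out libraries by fat could not be run at day 7, where 0 MI and 1 sham library were left, nor had day 2 any to leave out over 10 CPM. Cfb at day 2, with 5 to 19 counts per library, was limited by depth.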
